A study of Homo sapiens with 17 samples.

Results

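The granins and the genes that load, process and prime dense-core granules were followed in IMR32 cells, a MYCN-amplified line grown from a human neuroblastoma, after doxycycline was added to induce NOTCH3IC, the intracellular and active form of the receptor NOTCH3. The set holds 10 genes: the granin family members CHGA, CHGB, SCG2, SCG3, SCG5 and VGF, the prohormone processing enzymes PCSK1 and CPE, and the priming factors CADPS and CADPS2. All probe sets that the array annotation assigns to each were taken, without regard to their values, which gave 15 probe sets for 9 genes, of 19775 genes with a probe set in all. PCSK1 was not analysed here, as none of the probe sets used is annotated to it.

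The groups were clone c6 (c6 below) after doxycycline at times 4, 8, 12, 24, 48, 72, 96 and 120, clone c8 (c8) at times 4, 8, 12, 24, 48, 72 and 96, and time 0 of each clone, with 1 array per clone and time and 17 arrays in all. All arrays carry the inducible NOTCH3IC construct in IMR32 cells. The labels give no unit for the times, and none of the arrays is of cells kept without doxycycline after time 0, so NOTCH3IC, doxycycline and time in culture cannot be told apart. Late stands for times 48, 72 and 96 (6 arrays), early for times 4, 8 and 12 (6 arrays) and start for time 0 (2 arrays); times 24 and 120 enter the test over all times.

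Dense-core granules are the storage compartment of neuroendocrine cells and of the sympathetic and adrenal lineage from which neuroblastoma arises. Granins are acidic secretory proteins that aggregate in the trans-Golgi network, take part in forming the granule core, and are cut into bioactive peptides. Prohormone convertases and carboxypeptidases do the cutting inside the granule, and CAPS proteins prime the docked granule so that calcium can trigger its fusion. Granins serve as markers of neuroendocrine tumours, chromogranin A above all.

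The arrays were those of induced neuroblastoma cells. NOTCH3 had a late mean signal of 428.4 ± 37.1 in c6 and 777.6 ± 67.6 in c8 (SD, n = 3 late arrays each), against 94.6 and 218.3 at the start of these clones, and the Notch target HES1 was higher by 2.86 on the log2 scale late against start. A second, dimmer NOTCH3 probe set stayed at 3.6 to 15.6 on all arrays. Early against start NOTCH3 was at 0.74 and did not pass (limma adjusted p = 0.0556). HES1 was at -1.18 late against early (limma adjusted p = 0.0017). The summed signal of 7 sympathetic neuroblast markers was 9619.6 to 11539.9 late, 9846 to 11499.4 early and 11919.2 to 12434.1 at the start, most of it from MYCN and GATA3. PHOX2A, ELAVL4 and ISL1 were at 582.8, 818.6 and 163 or above on every array, HAND2 at 62.7 to 129.2, and STMN2 was dim, at 0.8 to 50.9. Sums stayed between 7.1 and 30.9 for 3 leukocyte markers, 24.9 and 53.9 for 3 endothelial markers, and 35.6 and 75.8 for 4 epithelial markers. The sum of 4 fibroblast genes was 751.2 to 1340.1 late, 692.1 to 1240.2 early and 914.2 to 1280.7 at the start, most of it from PDGFRA and COL1A1. Late against start 1 of the 7 neuroblast markers rose (STMN2) and 1 fell (PHOX2A). Of the 4 fibroblast genes, 1 rose (DCN) and 1 fell (PDGFRA), where 6.94% of all tested genes passed. ISL1 fell early against start, by 0.81 (limma adjusted p = 0.0184), and rose late against early, by 0.60 (limma adjusted p = 0.00868). STMN2 also rose and PHOX2A also fell late against early. CD14 and CDH1 were at or near 0, with highest signals of 6.9 and 6.6. The part of any of these in the results on granule genes was not tested.

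Late against start, SCG2 and CADPS rose about 4-fold each, and CHGA, CHGB, SCG3, VGF and CPE did not pass the test. CADPS had already risen early against start, where SCG2 did not pass. Of the 9 genes measured, 7 were bright enough to test, and SCG5 and CADPS2 were not. Of these 7, 2 passed, both higher, where 6.94% of all 13675 tested genes passed in either direction and 5.21% were higher. The members were chosen with earlier results of these data known. Shares of members beside those of all genes are therefore descriptions, here and below. The median log2 change was 0.15 over the 7 tested genes and 0.015 over all tested genes. Signals come from RNA of whole cultures, so fewer cells of a type and less RNA per cell cannot be told apart. All log2 changes here are of log2(signal + 16), given ± standard error from limma, and p-values are adjusted over all tested genes, with a threshold of 0.05.

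**Figure D1:**
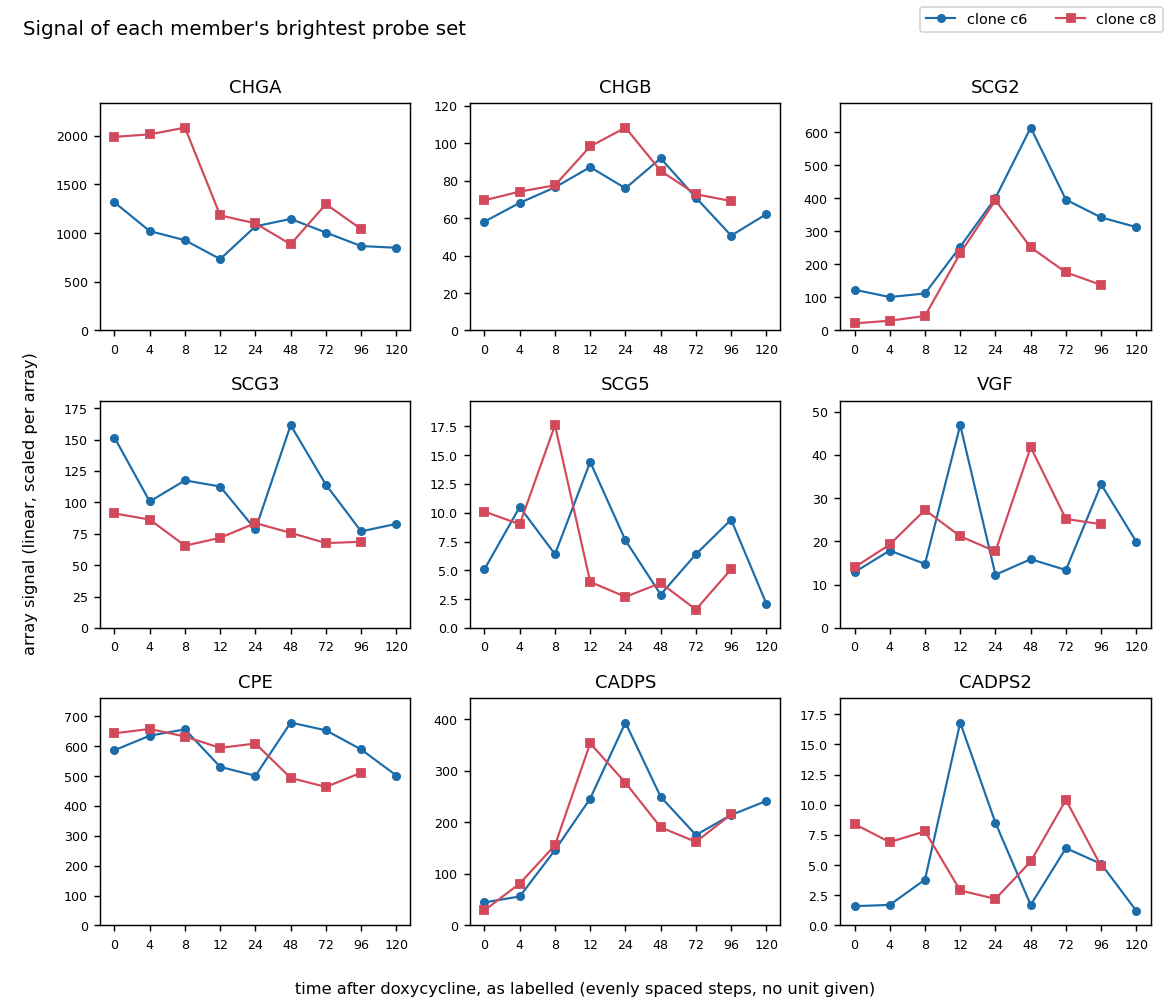
Signal of the brightest probe set of each of the 9 measured genes (linear scale from 0, arrays scaled by the authors) at each labelled time in clone c6 (blue circles) and clone c8 (red squares), 1 array per point, with times at even steps. SCG2 and CADPS climb after time 8 and after time 0, CHGA drops in c8 after time 8, and SCG5 and CADPS2 stay under a signal of 18.

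SCG2 encodes secretogranin II, the precursor of the chemotactic neuropeptide secretoneurin. In c6 its signal was 123.3, 101.2, 112, 253.5, 400.8, 613.7, 395.7, 342 and 312.7 from time 0 to time 120. In c8 it was 21.5, 29.6, 44, 233.7, 393.8, 251.4, 175.9 and 137.8 from time 0 to time 96. Through time 8 the signal stayed below time 0 in c6 and reached no more than 44 in c8; it was higher by time 12 in both clones and came down again after a peak at time 48 in c6 and at time 24 in c8. By time 96 it stood at 55.7% of its peak in c6 and 35% in c8.

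Averaged over the late arrays, SCG2 was at 450.5 ± 144 in c6 and 188.4 ± 57.8 in c8 (SD, n = 3 each), against a start of 123.3 in c6 and 21.5 in c8. Every late array lay above its own time 0, which is 1 array per clone in this and all such counts below. The late change was 2.05 ± 0.27 (4.15-fold, limma adjusted p = 0.000126), and the ratio of the late mean to the start was 3.65 in c6 and 8.76 in c8. Early against start the change was 0.71 ± 0.27 (limma adjusted p = 0.234), with 4 of 6 early arrays above their own time 0. The early arrays hold a step between times 8 and 12, and had means of 155.6 ± 85 in c6 and 102.4 ± 114 in c8 (SD, n = 3 each).

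SCG2 was the 1 of the 7 tested members that rose late against early, a comparison that leaves out the time-0 arrays: 1.34 ± 0.34 (2.54-fold, limma adjusted p = 0.0255), where 5.18% of all genes passed and 3.77% were higher. In c6 every late array lay above every early array, while in c8 the early value of 233.7 lay within the late range. This call is close to the threshold: leaving out any 1 of 7 of the 12 arrays raised its adjusted p to between 0.0535 and 0.0763 (times 4, 8, 48 and 72 of c6 and times 4, 8 and 48 of c8). It was also lost with no intensity filter (0.0564) and in a model with no clone term (0.113).

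CHGA encodes chromogranin A, the most used granule marker and the precursor of vasostatin, pancreastatin and catestatin. Its signal was 1315.2, 1020.5, 926.6, 732.7, 1068.8, 1145.4, 1005.5, 866.6 and 849.4 in c6 from time 0 to time 120. In c8 it was 1987.9, 2013.3, 2082.4, 1181.6, 1099.7, 885.1, 1297.3 and 1040.8 from time 0 to time 96. Clone c6 was lower at every later time than at time 0, whereas c8 stayed level through time 8 and was near its later values from time 12 on. The late mean was 1006 ± 139 in c6 and 1074 ± 208 in c8 (SD, n = 3 each), which is 76.5% and 54% of the start of these clones.

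All 6 late arrays of CHGA lay below their own time 0, but the change of -0.64 ± 0.21 did not pass (limma adjusted p = 0.0912). Without time 48 of c6 it was -0.80 and passed (adjusted p = 0.0133), but under the other 29 of 30 alternatives it did not pass. Early against start CHGA was at -0.39 ± 0.21 (limma adjusted p = 0.434), and late against early at -0.25 ± 0.17 (adjusted p = 0.549).

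CHGB, the second chromogranin, traced a shallow arch. Its signal was 58.2 in c6 and 69.6 in c8 at time 0, reached 92 at time 48 in c6 and 108.4 at time 24 in c8, and was 50.7 and 69.2 at time 96. The late change was 0.15 ± 0.14 (limma adjusted p = 0.634) and the early change 0.27 ± 0.14 (adjusted p = 0.412), although all 6 early arrays were above their own time 0. Over all times CHGB did not pass (adjusted p = 0.285).

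SCG3, secretogranin III, binds chromogranin A and cholesterol-rich granule membrane and so links the core to the membrane. Its late mean was 117.5 ± 42.4 in c6 and 70.63 ± 4.42 in c8 (SD, n = 3 each), against a start of 151.6 and 91.2. Of the 6 late arrays 5 lay below their own time 0; the exception was time 48 of c6, at 161.5. The late change was -0.34 ± 0.18 (limma adjusted p = 0.333).

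VGF, a neurotrophin-inducible granin whose peptides act in energy balance, was dim and jumped between neighbouring times. In c6 it read 12.9 at time 0 and 12.3 at time 24, with single high arrays of 46.9 at time 12 and 33.2 at time 96. In c8 it read 14 at time 0 and peaked at 41.8 at time 48. All 6 late and all 6 early arrays lay above their own time 0, yet neither the late change of 0.46 ± 0.25 (limma adjusted p = 0.362) nor the early change of 0.42 ± 0.25 (adjusted p = 0.493) passed. SCG5, the 7B2 chaperone of prohormone convertase 2, ranged from 2.1 to 14.4 in c6 and 1.6 to 17.6 in c8, below the intensity filter, so no direction is given for it.

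CPE, carboxypeptidase E, trims the basic residues left by the convertases and also acts in sorting cargo to the granule. It is read by 2 probe sets. The brighter had a late mean of 640.3 ± 46.3 in c6 and 489.5 ± 24.1 in c8 (SD, n = 3 each), against a start of 586.4 and 643. All 3 late arrays of c6 were above their own time 0 and all 3 of c8 were below it, so that the joint change was -0.13 ± 0.14 (limma adjusted p = 0.70). The second probe set lay below its own time 0 on all 6 late and all 6 early arrays, with changes of -0.34 ± 0.15 late (adjusted p = 0.409) and -0.44 ± 0.15 early (adjusted p = 0.339), both in the limma fit of every probe set. On that probe set the late arrays thus lay on the same side of time 0 in both clones.

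CADPS encodes CAPS1, the calcium-dependent activator protein that readies docked granules for release. The signal of its brightest probe set was 44.8, 56.3, 146.2, 246.4, 393.8, 249.7, 175.6, 214.5 and 241.7 in c6 from time 0 to time 120. In c8 it was 29.4, 81.4, 155.7, 353.6, 277, 190.5, 162.3 and 215.5 from time 0 to time 96. Each array after time 0 lay above the clone's own time 0, with a peak at time 24 in c6 and at time 12 in c8, a decline to time 72 and a higher value again at time 96.

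The late mean of CADPS was 213.3 ± 37.1 in c6 and 189.4 ± 26.6 in c8, the early mean 149.6 ± 95.1 and 196.9 ± 141 (SD, n = 3 each), against a start of 44.8 and 29.4. Early against start it had risen by 1.64 ± 0.18 (3.11-fold, limma adjusted p = 0.000169, 6 of 6 arrays higher), the 1 call among the 7 tested granule genes, where 2.01% of all genes passed early and 1.29% were higher. The late change was 2.04 ± 0.18 (4.10-fold, limma adjusted p = 4.04e-06, 6 of 6 arrays higher); averaged over the 6 CADPS probe sets it was 1.06 and still passed. Late against early it was at 0.40 ± 0.30 (limma adjusted p = 0.587). The early call was lost when the probe sets of a gene were averaged (0.77, adjusted p = 0.0512) and with a term per phase in place of each time (adjusted p = 0.0838).

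CADPS is read by 6 probe sets, which differ in brightness and in the size of the change. In the limma fit of every probe set, 3 of them rose late against start: the brightest, 1568604_a_at, by 2.04 (adjusted p = 3.71e-05), 233950_at by 1.08 ± 0.25 (adjusted p = 0.0431) and 239884_at by 1.05 ± 0.23 (adjusted p = 0.0294). The next, 1568603_at, was at 1.27 ± 0.31 (adjusted p = 0.0517) and 204814_at at 0.76 ± 0.34 (adjusted p = 0.432). The last, 234220_at, stayed between 2.1 and 17.9 on all arrays and was at 0.16 ± 0.20 (adjusted p = 0.872). Together with that of SCG2, 4 of the 15 granule gene probe sets rose and 0 fell late against start, where 1.66% of 54675 probe sets were higher. CADPS2, the paralogue CAPS2, ranged from 1.2 to 16.8 in c6 and 2.2 to 10.4 in c8 and was too dim to test.

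**Figure D2:**
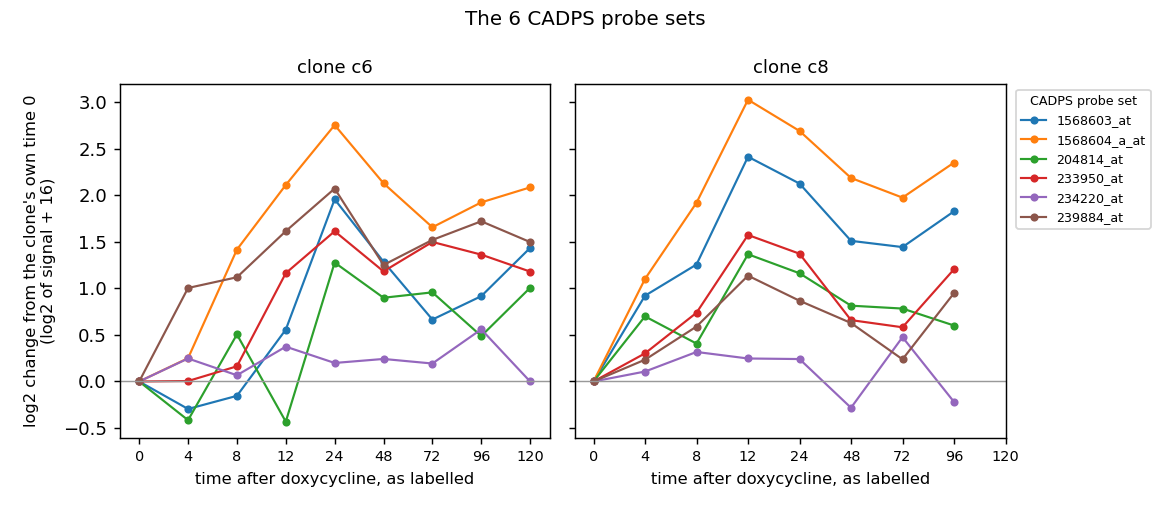
Log2 change of each of the 6 CADPS probe sets from the clone's own time 0, on log2(signal + 16), at each labelled time in c6 (left) and c8 (right), 1 array per point and with the grey line at no change. In both clones 1568604_a_at moves most, to 2.75 at time 24 in c6 and 3.02 at time 12 in c8, and 234220_at stays within 0.56 of its time 0.

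The promoters of CADPS, CHGA, VGF and SCG3 are shown because CADPS rose and the others did not pass, and because the windows differ in the regulatory letters they hold. RefSeq promoter windows of GRCh38.p14, from 250 bases before to 50 bases after the gene start, matched 7 of the 10 genes. SCG2, which also rose, had no window, and neither had CHGB and CADPS2. Both strands were searched for TGACGTCA (the cAMP response element, through which chromogranin A and VGF transcription is known to be driven), TGGGAA (the core bound by RBPJ, the DNA-binding partner of NOTCH intracellular domains) and CACGTG (the E-box bound by MYCN). They were also searched for the left part TTCAGCACC and the right part GGACAGCGC of RE1, the element bound by the neuronal gene repressor REST, a pair added after the windows were read. No motif found overlaps another. The CADPS window lies at chr3:62875367-62875666 (minus strand), CHGA at chr14:92922900-92923199 (plus), VGF at chr7:101165520-101165819 (minus) and SCG3 at chr15:51681253-51681552 (plus). Each is given 5′ to 3′ on the strand of the gene, with matches in capitals.
CADPS: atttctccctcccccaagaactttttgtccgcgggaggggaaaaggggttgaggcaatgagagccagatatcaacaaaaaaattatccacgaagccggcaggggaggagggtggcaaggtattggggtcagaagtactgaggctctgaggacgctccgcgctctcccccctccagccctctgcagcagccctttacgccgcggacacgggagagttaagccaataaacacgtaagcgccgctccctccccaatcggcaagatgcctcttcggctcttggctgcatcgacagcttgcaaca
CHGA: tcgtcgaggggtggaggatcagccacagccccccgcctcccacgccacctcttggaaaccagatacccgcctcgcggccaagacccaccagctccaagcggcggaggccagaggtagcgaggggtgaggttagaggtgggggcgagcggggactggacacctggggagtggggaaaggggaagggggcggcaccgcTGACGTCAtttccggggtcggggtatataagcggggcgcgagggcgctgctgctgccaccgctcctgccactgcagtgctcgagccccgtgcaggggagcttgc
VGF: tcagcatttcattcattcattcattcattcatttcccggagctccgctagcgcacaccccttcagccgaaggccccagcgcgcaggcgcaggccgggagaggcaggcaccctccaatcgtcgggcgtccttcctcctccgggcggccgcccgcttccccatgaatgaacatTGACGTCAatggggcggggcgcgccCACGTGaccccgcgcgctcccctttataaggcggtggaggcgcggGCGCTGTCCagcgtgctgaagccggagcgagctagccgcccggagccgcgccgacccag
SCG3: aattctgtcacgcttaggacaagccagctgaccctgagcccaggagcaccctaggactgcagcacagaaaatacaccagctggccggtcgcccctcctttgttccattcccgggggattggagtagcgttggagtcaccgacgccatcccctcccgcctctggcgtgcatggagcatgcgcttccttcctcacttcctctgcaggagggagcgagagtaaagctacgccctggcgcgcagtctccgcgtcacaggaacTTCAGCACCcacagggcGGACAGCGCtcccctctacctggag

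The capitals in CHGA are the cAMP response element, whose first base is at position -54, counting the gene's start base as 1 and the base before it as -1. Those in VGF are the cAMP response element at -79, the E-box at -54 and, on the other strand, the right part of RE1 at -9. Those in SCG3 are the left and right parts of RE1, at positions 9 and 26. The cAMP response element is in 1.85% of 35116 promoters of the same length and in 3 of the 8 windows of the granule genes, the 1 other being a PCSK1 window. TGGGAA is in 24% of promoters and, here, in both PCSK1 windows. CACGTG is in 7.26% of promoters, TTCAGCACC in 0.376% and GGACAGCGC in 0.581%. CADPS holds none of the 5. The windows of CPE, which did not pass, and of SCG5, which was not tested, hold none either. This says only that these letters are not in these windows.

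Over all times, SCG2 (limma adjusted p = 0.000157) and CADPS (adjusted p = 1.48e-05) were again the members that passed, 2 of 7, where 6.61% of all genes varied. Across the 17 arrays, centred on each clone's mean, their log2 values correlated with r = 0.81, and SCG2 and CHGA with r = -0.67. These are descriptions over arrays that share a clone and a course in time. Of all tested genes, those most like SCG2 by this measure were CHST1 (r = 0.978), TNC (r = 0.971) and CA10 (r = 0.971), and those most like CADPS were SVIL (r = 0.974), LIPG (r = 0.971) and NHSL2 (r = 0.953).

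Of the granins, SCG2, SCG3 and CHGA differed in level between the clones. At the 8 shared times SCG2 was higher in c6 at each (292.8 ± 180 in c6 and 161 ± 130 in c8, SD, n = 8 times each), by 1.005 ± 0.17 on the log2 scale (limma adjusted p = 0.000666). The 8 arrays of a clone are times of 1 course, so the SDs in this paragraph hold the change over time. In the fit, times stand in as replicates of a clone. SCG3 was higher in c6 at 7 of 8 times (114.2 ± 30.5 and 76.28 ± 9.61), by 0.47 ± 0.11 (limma adjusted p = 0.00704). CHGA went the other way, lower in c6 at 7 of 8 times (1010 ± 177 and 1449 ± 494), at -0.46 ± 0.13 (limma adjusted p = 0.0192). CADPS did not pass (190.9 ± 113 in c6 and 183.2 ± 103 in c8, 0.04 ± 0.11, limma adjusted p = 0.824). Thus 3 of 7 differed, 2 higher and 1 lower in c6, where 21.7% of all genes did, 10.2% higher and 11.4% lower. The CHGA call was lost without time 4 or time 8 of either clone.

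For the difference between the clones in the change from early to late, 0 of 7 granule genes passed in limma, as did 0% of all genes. The smallest adjusted p was 0.528 among these 7 and 0.216 among all genes. At an unadjusted p under 0.05 stood 2 of the 7 and 1193 of all 13675 tested genes. The 2 were CHGA, at 0.85 ± 0.28 in c6 minus c8 (limma adjusted p = 0.528), and CPE, at 0.43 ± 0.15 (limma adjusted p = 0.5285). For CHGA the late mean was 1006 and the early mean 893.3 in c6, and 1074 and 1759 in c8.

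The wider granule machinery was read from 83 further genes in 5 lists, chosen with earlier results of these data known. Of these genes, 78 have an annotated probe set and 60 were tested. Late against start 2 rose and 5 fell, or 11.7%, beside 6.94% of all genes passing, 5.21% higher and 1.73% lower. The median change was 0.096, against 0.015 over all genes. Late against early, 1 of the 60 rose and 1 fell, or 3.33%, beside 5.18% of all genes passing. Early against start, 0 rose and 1 fell, or 1.67%, beside 2.01% of all genes.

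**Figure D3:**
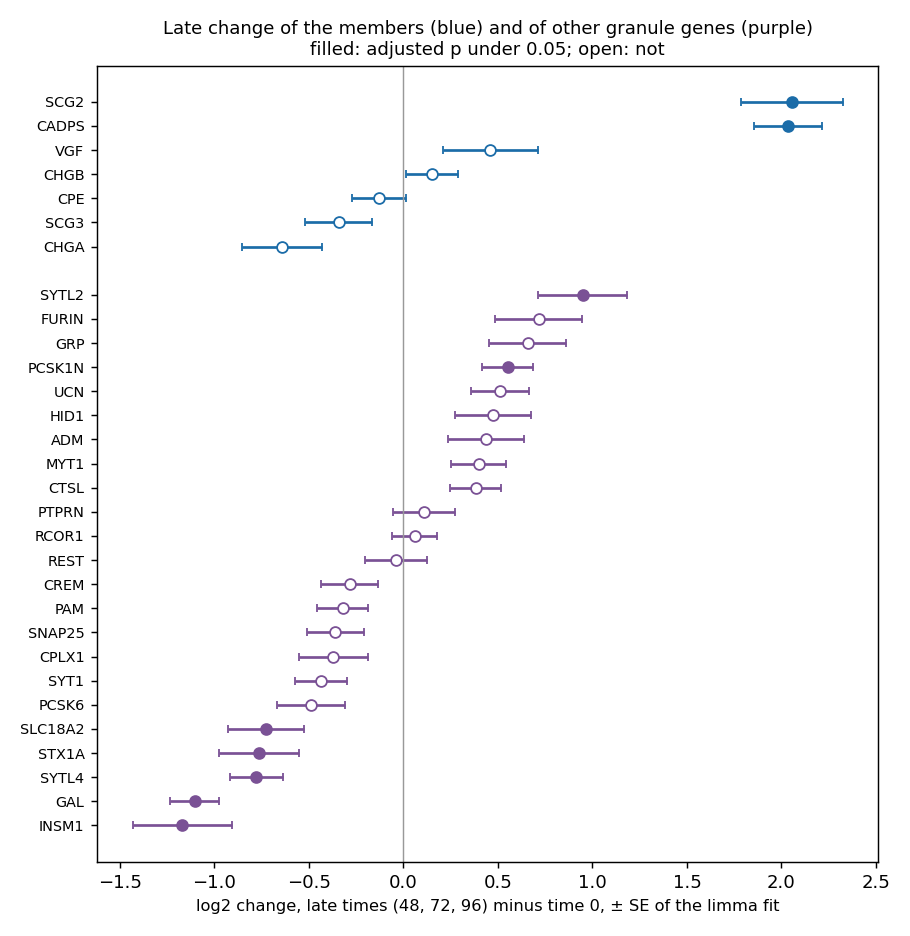
Log2 change from time 0 to the late times (late minus start, ± SE of the limma fit) of the 7 tested members (blue) and of the named genes of the 5 further lists (purple), filled where the adjusted p was under 0.05. SCG2 and CADPS stand near 2, SYTL2 and PCSK1N are the filled purple points on the right, and SLC18A2, STX1A, SYTL4, GAL and INSM1 those on the left.

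Among peptide cargo, 9 of 22 listed genes were bright enough to test. Late against start 0 rose and 1 fell, or 11.1%, beside 6.94% of all genes. GAL, the neuropeptide galanin of sympathetic neurons, was at 958.7 ± 130 in c6 and 1042 ± 104 in c8 late (SD, n = 3 each), against a start of 1864.9 and 2495.9. It fell by 1.10 ± 0.13 (2.15-fold lower, limma adjusted p = 4.50e-05, 6 of 6 arrays lower), and fell late against early too, by 0.58 ± 0.12 (limma adjusted p = 0.00771). GRP, gastrin-releasing peptide, rose late against early by 0.86 ± 0.19 (limma adjusted p = 0.0108), with a late mean of 23.37 ± 11.8 in c6 and 52.37 ± 21.9 in c8 and an early mean of 6.367 ± 5.35 and 19.37 ± 8.62. It reached its highest signals at the last time of each clone, 64.2 and 75.4, and late against start it was at 0.66 ± 0.20 (limma adjusted p = 0.0729). The early mean of GRP in c6 lies under the array medians of 14.6 to 19.3. The late against early calls of GAL and GRP were not run under the alternatives. UCN, urocortin, was at 0.51 (adjusted p = 0.0590). The highest signals of NPY and VIP on any array were 17.3 and 12.1, and neither was tested.

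Among 9 tested genes of prohormone processing besides CPE, 1 rose and 0 fell late against start, with a median change of -0.015. That is 11.1%, beside 6.94% of all genes. PCSK1N encodes proSAAS, a granin-like inhibitor of prohormone convertase 1. Its late mean was 115.6 ± 6.41 in c6 and 152.7 ± 19.9 in c8 (SD, n = 3 each), against a start of 84.6 and 86.3, a rise of 0.55 ± 0.14 (limma adjusted p = 0.0222, 6 of 6 arrays higher). PCSK1N did not pass after quantile normalization (adjusted p = 0.0526) or median centring (0.0823), or without time 96 of c6 (0.051). The convertase FURIN was at 0.72 ± 0.23 (adjusted p = 0.0844), the protease CTSL at 0.38 (adjusted p = 0.128), the convertase PCSK6 at -0.49 (adjusted p = 0.138) and PAM, which amidates peptides, at -0.32 (adjusted p = 0.210), all late against start. PCSK2 was not analysed here.

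Among 22 tested genes of granule membrane, sorting and transport, 1 rose and 2 fell late against start (median 0.154). That is 13.6%, beside 6.94% of all genes. The synaptotagmin-like Rab27 effectors SYTL2 and SYTL4 went opposite ways. SYTL2 rose by 0.95 ± 0.23 (limma adjusted p = 0.0208, 5 of 6 arrays higher), with dim late means of 37.6 ± 23.4 in c6 and 38.83 ± 14.2 in c8, against a start of 14.1 and 7.6. SYTL4, granuphilin, fell by 0.78 ± 0.14 (limma adjusted p = 0.00203, 6 of 6 arrays lower), with late means of 70.27 ± 25.1 in c6 and 71.37 ± 13.4 in c8, against 129.3 and 131.2 at the start. SLC18A2, the vesicular monoamine transporter VMAT2, fell by 0.73 ± 0.20 (limma adjusted p = 0.0392), with late means of 11.27 ± 2.11 in c6 and 9.933 ± 6.23 in c8, against a start of 23.5 and 32. These late means lie under the array medians of 14.6 to 19.3, and the SLC18A2 call was lost under 13 of 28 alternatives, a pseudocount of 1 (adjusted p = 0.095) and the loss of time 72 or 96 of either clone or time 48 of c8 among them. PTPRN, the granule membrane protein IA-2, was at 0.11 ± 0.16 (limma adjusted p = 0.789).

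Among 14 tested exocytosis genes besides the CAPS pair, 0 rose and 1 fell late against start (median 0.014). That is 7.14%, beside 6.94% of all genes. STX1A, the plasma membrane SNARE syntaxin 1A, fell by 0.77 ± 0.21 (limma adjusted p = 0.0391), with late means of 42.73 ± 11.4 in c6 and 58.97 ± 5.26 in c8, against a start of 122.2 and 74.8. The STX1A call was lost under 15 of 30 alternatives, among them no intensity filter (adjusted p = 0.0986), c8 alone (-0.28, adjusted p = 0.763), and the loss of time 4, 8, 48, 72 or 96 of c6 or time 4, 8 or 48 of c8 (adjusted p 0.0519 to 0.0892). SNAP25, its SNARE partner, was at -0.36 ± 0.15 late against start (limma adjusted p = 0.204). Its brightest probe set fell early against start, by 0.64 ± 0.15 (limma adjusted p = 0.0390). Early means were 144.7 ± 25.7 in c6 and 120.1 ± 32.8 in c8 (SD, n = 3 each), against a start of 264.9 and 168.8. The next brightest read 113.1, 115.3, 102.9 and 107.3 from time 0 to time 12 in c6, and 79.2, 76.1, 67.6 and 66.5 in c8. The dimmest read 50.3, 47.6, 29.1 and 55.1 in c6, and 29.4, 30.5, 20.4 and 17.7 in c8. The early call of SNAP25 was not run under the alternatives. The calcium sensor SYT1 was at -0.44 (adjusted p = 0.0758) late against start.

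Of 6 tested neuroendocrine transcription regulators 0 rose and 1 fell late against start (median -0.009). That is 16.7%, beside 6.94% of all genes. INSM1, a zinc finger factor needed for endocrine and sympathoadrenal differentiation, fell by 1.17 ± 0.26 (2.25-fold lower, limma adjusted p = 0.0109, 6 of 6 arrays lower), with late means of 480.1 ± 289 in c6 and 595.2 ± 57.5 in c8 (SD, n = 3 each), against a start of 1365.2 and 973.6. In both clones its signal was highest at time 8 and had dropped by time 12. REST, the repressor of neuronal genes, was at -0.04 ± 0.17 (limma adjusted p = 0.933) and its partner RCOR1 at 0.06 ± 0.12 (adjusted p = 0.854). Except for that of GAL, each of these 7 late calls was lost when 1 or the other time-0 array was left out: 1 of 7 passed without that of c6 and 2 without that of c8.

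**Figure D4:**
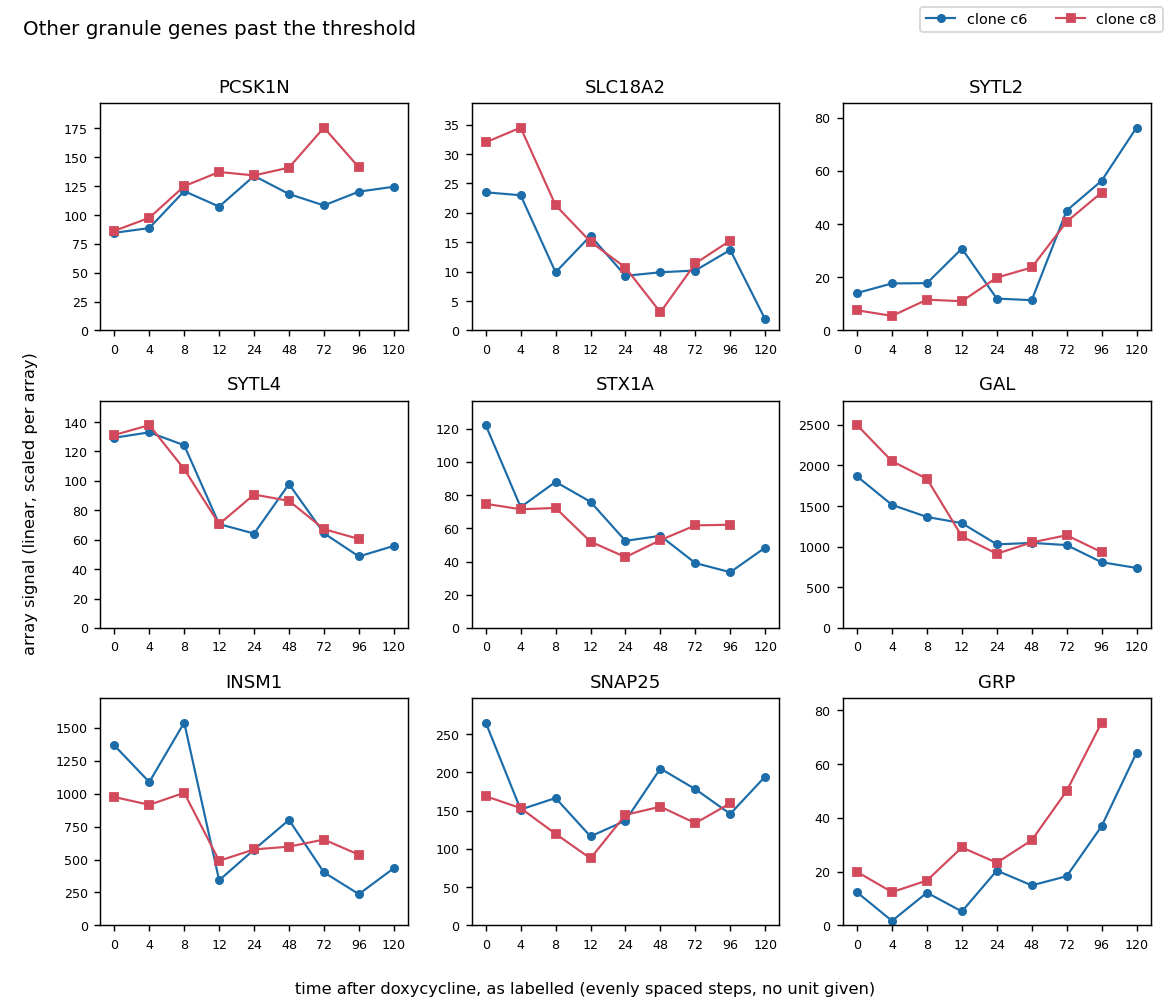
Signal (linear scale from 0, arrays scaled by the authors) of 9 further granule genes that passed a late against start, early against start or late against early test, at each labelled time in clone c6 (blue circles) and clone c8 (red squares), 1 array per point, with times at even steps. GAL falls through time 24 in both clones, INSM1 drops between times 8 and 12, and GRP and SYTL2 are highest at the last time of each clone.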

How the data were processed

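Biotin-labelled RNA of 17 samples was hybridised to arrays with 54675 probe sets. The deposited values are linear probe set intensities, made with MAS5 and GCOS (versions not given) per the submitters' processing notes; each array had the same 2% trimmed mean (100.01) and a median of 14.6 to 19.3. Of the probe sets, 41097 carry 1 symbol, 1801 several and 11777 none. The brightest probe set, by mean log2(value + 16), stood for its gene, and genes were tested from the 40th percentile of these means upward (4.68), which kept 13675 of 19775 genes. limma 3.58.1 in R 4.3.3 (lmFit, eBayes with trend) was used with Benjamini-Hochberg adjustment, after tests on simulated data. Terms for time and clone were fitted on all 17 arrays (7 residual degrees of freedom), and late against early on 12 arrays (9). The labels do not say whether times are separate cultures, so p-values reflect the spread among these arrays, and neighbouring times stand in as replicates. The number of arrays limits the precision. Arrays were paired by clone from the labels; clone differences at the shared times correlated at 0.132 to 0.485 across genes. No pair of arrays shared over 1.42% of values.

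The members and gene lists were chosen with earlier results of these data known. Named genes were all members, up to 4 genes of smallest p late against start per list, PCSK2, PAM, PTPRN, NPY, GAL, VIP, REST, INSM1, NOTCH3 and HES1, and the 3 genes most correlated with each member that varied over time; SNAP25 early and GRP late against early are among them. Alternatives were other pseudocounts (1, 64), normalizations, filters, probe set rules, models and each array left out. Promoter windows were read with Python 3.11.15 and plots drawn with matplotlib 3.10.9.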

Additional observations from a re-analysis of the deposited data

Results flagged for a closer look

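The late change of the brighter CPE probe set from the clone's own time 0 was 0.505 higher in c6 than in c8 on the log2 scale. It stands out because all 3 late arrays of c6 lay above their time 0 (0.206, 0.152 and 0.006 at times 48, 72 and 96) and all 3 of c8 below it (-0.371, -0.459 and -0.322). That difference rests on 1 time-0 array per clone and was not tested; the difference in late minus early change, which was, had a limma adjusted p of 0.5285. On the second CPE probe set the late changes were -0.164, -0.474 and -0.578 in c6 and -0.448, -0.226 and -0.129 in c8. Of 18 sets of arrays searched for a single outlying array, 0 held one. With 1 array per clone and time, the search cannot tell an outlying array from a change over time or between clones.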

How the results depend on the processing

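The 2 late rises (SCG2 and CADPS) passed under 28 of 30 alternatives each, the exceptions being each clone alone, where 1 time-0 array serves as the start and 0 members passed in c6 and 0 in c8 (SCG2 1.70, adjusted p = 0.0578, and 2.41, adjusted p = 0.235; CADPS 1.90, adjusted p = 0.0848, and 2.17, adjusted p = 0.131). Their log2 size depends on the pseudocount (2.42 and 2.42 with 1, 1.48 and 1.39 with 64), and that of CADPS was lowest, 1.06, with averaged probe sets. Paired by clone, 2 members varied over time; with no replicate block the count was 1 (CADPS), and late against early it was 0. The early count of 1 became 0 with averaged probe sets, with phase means and in each clone alone. The late against early count of 1 became 0 with no filter, with every probe set tested, without a trend and in c8 alone (SCG2 adjusted p = 0.476), and was 0 to 1 with an array left out. The clone difference in level kept 2 to 3 members with an array left out. Of the 15 member probe sets, 4 rose: 2 with a pseudocount of 64, 1 with no replicate block, 2 with phase means, and 2 to 5 with an array left out (2 without times 0, 48, 72 or 96 of c6 or times 0 or 96 of c8). Of the further granule genes 7 passed late against start: 3 with every probe set tested, 4 with no replicate block, 3 with phase means, 2 in c6 alone, 0 in c8 alone, and 1 to 9 with an array left out (4 without time 96 of c6). With averaged probe sets INSM1 (adjusted p = 0.0817), SYTL4 (0.0598) and SYTL2 (0.0522) lost the call and SYT1, UCN and GRP gained it; GAL lost it in c8 alone (adjusted p = 0.0844). Over 46 single gene values and 1326 settings, 1210 were unchanged in direction and call, 78 lost the call, 12 gained it, 26 moved without a call and 0 reversed. With no replicate block PCSK1N (adjusted p = 0.11), SLC18A2 (0.0594), STX1A (0.0825) and NOTCH3 (0.103) lost their late against start call. None of the other further granule genes did. The marker genes STMN2, PHOX2A, ISL1, DCN and PDGFRA were not run under the alternatives. Median centring, which moved the median late change of all genes to -0.057 against 0.015, gave 523 genes higher and 290 lower late against start, beside 712 and 237, and quantile normalization 643 and 215. The alternatives for probe sets and further granule genes were chosen after seeing the data. Causes of lost or gained calls were not tested, and a single clone also has fewer arrays. Genes near the intensity filter, SLC18A2, VGF and SYTL2 among them, are limited by signal over background, and detection calls were not used here.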
